A study of Mus musculus with 12 samples.

Results

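Cultured mouse muscle stem cells that had received a Six2 expression plasmid were set against cells that had received the empty plasmid, over both sorted populations of those cells. The comparison used 6 RNA-seq libraries labelled SIX2 and 6 labelled control, which are 12 of the 12 libraries of the series. Genes that reached 10 normalized counts in 3 or more of the 12 libraries entered it, and 14580 of 23586 genes did. For each of them a single plasmid effect was fitted on log2(normalized count + 1), with the GFP label as a covariate, so that the effect is the mean difference between plasmid labels within the sorted populations.

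All cells came from Pax3nLacZ-IRES-GFP mice, in which GFP is read out from the Pax3 locus, and were sorted on GFP before culture. The 4 groups held 3 libraries each: GFP-positive with the SIX2 plasmid, GFP-negative with the SIX2 plasmid, GFP-positive with the control plasmid and GFP-negative with the control plasmid. The SIX2 plasmid was 2 µg of pCR3-Six2, which carries the mouse Six2 coding DNA, delivered with Lipofectamine LTX, and the control was empty pCR3. Both plasmids went into cells kept in medium with 20% fetal calf serum and 4 ng/mL basic FGF, so the control libraries share the transfection, the serum and the growth factor. At least 50000 cells went into each library, and the age and sex of the mice and the time between transfection and harvest are not given in the sources used here. RT-qPCR for Six2 was used to check transfection, per the labels, but no share of transfected cells is given, so each library may average over cells with and without plasmid. No label ties the libraries to particular animals or cultures, so the p-values describe the scatter among these libraries alone, and that scatter may be technical.

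Muscle stem cells, or satellite cells, lie on the muscle fibre and are marked by the transcription factor PAX7, and in some muscles also by its relative PAX3. Once activated they express MYF5 and MYOD1 and divide as myoblasts, then leave the cell cycle under MYOG, fuse and build the contractile apparatus. SIX-family proteins are homeodomain factors that bind DNA together with EYA cofactors. SIX2 is best known for keeping kidney progenitors undifferentiated.

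Libraries held 12438885 to 47299937 reads assigned to genes, and the 3 GFP-positive SIX2 libraries were the shallowest group as a whole, at 12632428 to 15492340. The first principal component carried 27.4% of the variance and separated the plasmid labels without overlap, with scores of 26.4 to 41.2 in SIX2 libraries and -39.8 to -29.0 in control libraries. Six2 itself (chr17:85684277-85688274, minus strand) does not check the plasmid labels. It measured 6.51, 23.1 and 28.6 normalized counts at the lowest, median and highest SIX2 library, against 3.37, 9.32 and 24.4 in control libraries, a log2 difference of 1.03 ± 0.47 (SE) with an adjusted p of 0.107. The ranges overlapped, each library rested on 2 to 36 reads, and without the lowest SIX2 library, GFP-positive SIX2 replicate 3, the difference was 1.28 with an adjusted p of 0.0488. The groups are therefore called by their labels throughout. Adjusted p-values are from limma-trend with the Benjamini-Hochberg method over all 14580 genes, a gene is called at 0.05, and each change is the SIX2 minus the control label on the log2(value + 1) scale.

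Plasmid label was tied to a change in a large share of the transcriptome. Of 14580 genes, 4926 were called (33.8%), of which 2465 were higher in SIX2 libraries (16.9%) and 2461 lower (16.9%). The shares of 16.9% are the background for the list counts below. In the highest of 4 equal classes of mean level, 16.7% were called higher and 31.0% lower. For lower calls in lists of highly expressed genes, 16.9% is therefore too low a background. Most changes were small: 534 genes were called and more than 2-fold higher (3.66%), and 262 were called and more than 2-fold lower (1.8%). Changes beyond 4-fold numbered 64 higher and 37 lower. All 6 SIX2 libraries lay above all 6 control libraries for 1277 genes (8.76%) and below them for 1142 genes (7.83%). Within each population taken separately, the 3 SIX2 libraries lay above the 3 control libraries in both for 1591 genes (10.9%), and below them in both for 1475 (10.1%). The median change over all genes was -0.0074 after the authors' scaling.

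Taking the populations together narrowed the error. The median SE of the plasmid effect was 0.12 in the additive fit, against 0.159 within one population. Of the called genes, 97.95% had the smaller SE in the additive fit. That follows largely from the design, which sets 6 libraries against 6 in place of 3 against 3. Within GFP-positive libraries 3394 genes were called (23.3%; 12.1% higher and 11.2% lower), and within GFP-negative libraries 4075 (27.9%; 13.6% higher and 14.3% lower). Among the 4926 genes called in the additive fit, 2002 were called in both populations with the same sign, 899 in GFP-positive libraries alone and 1312 in GFP-negative libraries alone, and none was called in opposite directions. A further 713 were called in neither population on its own, 368 higher and 345 lower. The estimates of the 2 populations had the same sign for 4920 of the 4926 genes, which the additive fit favours by construction. In the other direction, 1244 genes called in at least 1 population were not called in the additive fit, and 10 of them were called in opposite directions.

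**Figure D1:**
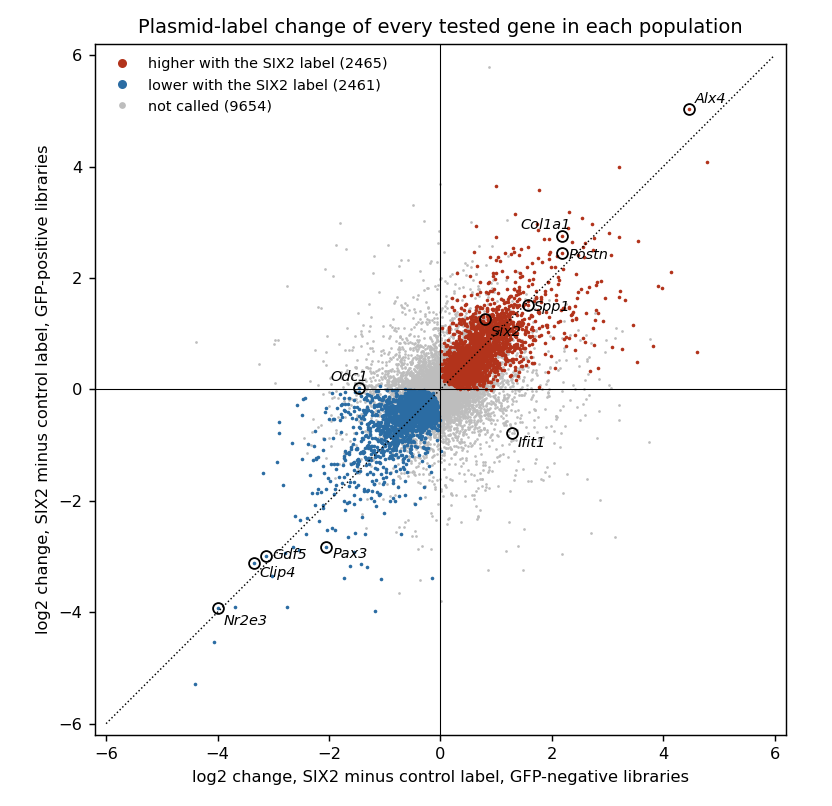
Plasmid-label change of each of 14580 genes in GFP-positive libraries (vertical axis, log2, SIX2 minus control) against the same change in GFP-negative libraries (horizontal axis), with genes coloured by their call in the additive fit. The 2465 genes called higher lie mostly in the upper right and the 2461 called lower mostly in the lower left, and both axes use 3 libraries of each label.

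A test of whether the plasmid effect differed between GFP-positive and GFP-negative cells called 0 genes (0%), with a smallest limma adjusted p of 0.0751. At an unadjusted p under 0.05 it passed 2437 of 14580 genes, a larger share than the 0.05 that would pass if no gene differed. Among the 4926 it passed 822, about the same share as over all genes. On recovered reads, edgeR called 0 for this difference and DESeq2 called 562. Without GFP-positive control replicate 3 limma called 171, and without GFP-positive SIX2 replicate 3 it called 56. The additive fit assumes a common plasmid effect, and a difference that misses the threshold does not show that the populations responded alike.

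**Figure D2:**
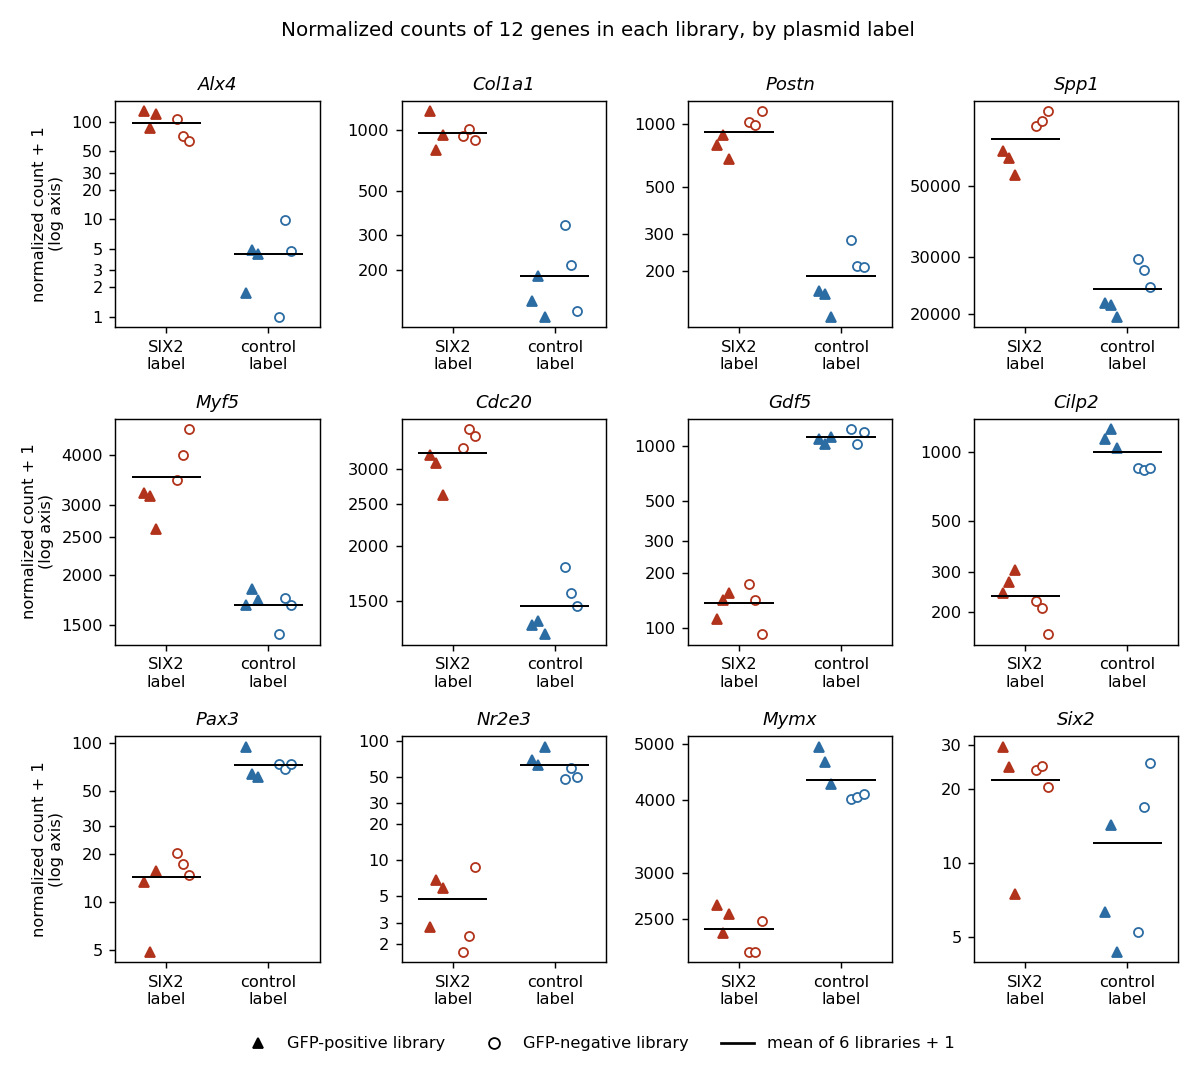
Normalized count + 1 of 12 genes in each of the 12 libraries on log axes, with SIX2-labelled libraries on the left and control-labelled on the right of each panel; triangles are GFP-positive and circles GFP-negative libraries, and bars are the mean of 6. The labels do not overlap for the first 11 genes, while for Six2 they do.

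Cell cycle genes made up the most uniform group. Of 30 tested genes of G2 and mitosis, 29 were higher in SIX2 libraries and 0 lower, against 16.9% of all genes in each direction, and the list's median change was 1.05 against -0.0074 over all genes. The median was 1.07 in GFP-positive and 1.04 in GFP-negative cells. In each of the 29 genes every SIX2 library lay above every control library. The exception was Cdc25b, a phosphatase that activates CDK1, at 0.027 (adjusted p = 0.905). Summed over the list, GFP-positive libraries held 38460 to 44756 normalized counts with the SIX2 label and 17478 to 21892 with the control label, and GFP-negative libraries held 47055 to 50133 with the SIX2 label and 22859 to 27505 with the control label. In bulk libraries, more cells in a phase of the cycle and more RNA per cell in that phase cannot be told apart.

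Cdc20, the activator of the anaphase-promoting complex, measured 2623, 3288 and 3704 normalized counts at the lowest, median and highest SIX2 library, against 1260.5, 1406 and 1793 in control libraries. Every SIX2 library exceeded every control library, and the change was 1.16 ± 0.06 (adjusted p = 2.97e-08). Ccnb1, the mitotic cyclin that partners CDK1, measured 3162, 3943 and 4485 with the SIX2 label and 1294, 1613 and 2082 with the control label, a change of 1.24 ± 0.07 (adjusted p = 5.6e-08). The mitotic kinase gene Aurka measured 1247, 1501 and 1689 and 533, 695 and 760.4 in the same order, a rise of 1.14 ± 0.07 (adjusted p = 7.1e-08). All 3 genes thus a little more than doubled with no overlap between labels, as did Prc1, which bundles the spindle midzone (1.13 ± 0.07), and Plk1, a kinase of mitotic entry (1.14 ± 0.10). Spc24, a subunit of the kinetochore complex NDC80, was among the 10 genes with the smallest p of all, at 1259, 1448 and 1672 in SIX2 and 610.0, 668 and 710.3 in control libraries (1.12 ± 0.06, adjusted p = 1.96e-08). Mki67, the classical proliferation antigen, rose by 1.26. Cdc20 overlaps Elovl1 on the opposite strand and Prc1 overlaps Rccd1, and the deposited values do not say which strand was counted.

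Late cell cycle promoters are known for a cell cycle homology region, a short element with the core TTTGAA that recruits the DREAM and MuvB complexes, beside CCAAT boxes that bind NF-Y. Promoter windows from RefSeq (GRCm38.p6, 250 bases before to 50 after the start of each gene) were matched for 10648 of 14569 tested symbols and searched for TTTGAA and CCAAT on both strands. Both were present in 17 of 25 windows of the G2 and mitosis list (68%), against 5.203% of all tested windows. TTTGAA alone was in 68% of that list's windows, 12% of the S phase list's, 16.3% of those of all genes called higher, 10.29% of those called lower and 11.96% of all. CCAAT was in 88% of the list's windows and 39.09% of all. The windows of Cdc20 (chr4:118437294-118437593, minus strand), Prc1 (chr7:80294201-80294500, plus strand), Aurka (chr2:172370521-172370820, minus strand) and Plk1 (chr7:122159185-122159484, plus strand) show the letters in genes that rose in both populations, 5′ to 3′, with TTTGAA and CCAAT in capitals.
Cdc20: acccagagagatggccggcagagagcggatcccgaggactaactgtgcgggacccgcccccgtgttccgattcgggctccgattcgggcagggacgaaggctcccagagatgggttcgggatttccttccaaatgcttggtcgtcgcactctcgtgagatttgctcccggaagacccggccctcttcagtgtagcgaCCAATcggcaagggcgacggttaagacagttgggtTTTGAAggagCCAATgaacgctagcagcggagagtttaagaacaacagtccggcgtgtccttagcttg
Prc1: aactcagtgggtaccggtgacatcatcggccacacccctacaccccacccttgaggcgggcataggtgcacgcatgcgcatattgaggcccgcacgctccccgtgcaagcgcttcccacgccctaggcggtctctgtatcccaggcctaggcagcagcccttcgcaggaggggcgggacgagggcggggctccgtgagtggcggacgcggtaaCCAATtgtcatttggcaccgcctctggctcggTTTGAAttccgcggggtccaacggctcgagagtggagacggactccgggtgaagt
Aurka: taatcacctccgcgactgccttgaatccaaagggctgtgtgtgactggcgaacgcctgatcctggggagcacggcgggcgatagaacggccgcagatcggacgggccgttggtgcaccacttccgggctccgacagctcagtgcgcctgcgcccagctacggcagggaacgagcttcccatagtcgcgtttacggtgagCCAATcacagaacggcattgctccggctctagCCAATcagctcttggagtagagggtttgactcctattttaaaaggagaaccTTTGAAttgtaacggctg
Plk1: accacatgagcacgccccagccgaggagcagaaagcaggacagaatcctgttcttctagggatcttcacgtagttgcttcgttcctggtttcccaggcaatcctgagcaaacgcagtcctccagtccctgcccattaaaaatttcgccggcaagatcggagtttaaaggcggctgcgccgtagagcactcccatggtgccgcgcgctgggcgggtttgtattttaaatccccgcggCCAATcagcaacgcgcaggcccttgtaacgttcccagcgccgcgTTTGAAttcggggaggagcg
Counted from the gene start, TTTGAA begins at position -18 in Cdc20, -5 in Prc1, 33 in Aurka and 31 in Plk1. A match of letters is a description and not a bound site.

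Genes of S phase and DNA replication rose nearly as uniformly, with 29 of 32 tested members higher and 2 lower and a median change of 0.86 (0.93 in GFP-positive and 0.76 in GFP-negative cells). Cdc6, which loads the replicative helicase, measured 644, 681 and 785 in SIX2 and 199.9, 241 and 356 in control libraries, a change of 1.44 ± 0.11 (adjusted p = 2.72e-07). Rrm2, the regulated subunit of ribonucleotide reductase, measured 9644, 11261 and 14123 in SIX2 and 5007, 5662 and 6435 in control libraries (1.04 ± 0.08). Neither gene had overlapping labels. Uhrf1, which carries DNA methylation through replication, rose by 1.07, Ccne1, the cyclin of S phase entry, by 1.00, and Tyms, thymidylate synthase, by 0.96. The 2 lower genes were Rrm1, the large subunit of ribonucleotide reductase (-0.15, adjusted p = 0.0203), and E2f8, an atypical repressor of E2F targets that overlaps Gm2788 (-0.37, adjusted p = 0.000674). Both were chosen for mention because they are the exceptions.

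Upstream of S phase, 7 of 14 tested D cyclins, their kinases and CDK inhibitors were higher and 1 lower. Ccnd2, a D cyclin, measured 733, 946 and 1224 in SIX2 libraries and 244, 338 and 364 in control libraries, a rise of 1.58 ± 0.13 (adjusted p = 5.85e-07). Its kinase Cdk6 measured 995, 1111 and 1307 in SIX2 and 426, 515 and 534 in control libraries, a rise of 1.20 ± 0.08 (adjusted p = 1.6e-07). Ccnd1 rose by 0.90 and Cdk4 by 0.46. The only lower member was Rb1, the retinoblastoma protein that restrains E2F, at -0.52 (adjusted p = 0.0127), with overlapping ranges. Cdkn1a, the p21 inhibitor that marks cell cycle exit in myoblasts, was not called (-0.10, adjusted p = 0.239).

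The factors that define the myogenic lineage did not move together: of 13 tested, 5 were higher and 6 lower. Pax3 (chr1:78101267-78197134, minus strand), whose locus drives the GFP used for sorting, measured 3.90, 14.2 and 19.3 in SIX2 libraries, against 59.9, 70.5 and 94.1 in control libraries. The fall was -2.44 ± 0.30 (adjusted p = 2.22e-05), without overlap, and came to -2.82 in GFP-positive and -2.06 in GFP-negative cells. Pax3 does not check the GFP label: control libraries averaged 72.2 ± 19.02 with GFP-positive and 71.4 ± 2.79 with GFP-negative cells (SD, n = 3 each), and the additive GFP effect was -0.40 (limma adjusted p = 0.552). Pax7 went the other way, at 159, 163 and 184 in SIX2 and 82.5, 102 and 148 in control libraries, a rise of 0.68 ± 0.14 (adjusted p = 0.00195). Myf5, the factor of committed and dividing myoblasts, rose by 1.04 ± 0.11 (adjusted p = 4.95e-06), at 2610.1, 3346 and 4657 in SIX2 and 1420.1, 1709.9 and 1843 in control libraries, which do not overlap. Id3, which holds MYOD1 inactive, was 0.32 higher.

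Myog and Myod1 were slightly lower. Myog measured 70194, 77482 and 86231 in SIX2 and 81773, 91247 and 94515 in control libraries, with overlap, a change of -0.22 ± 0.05 (adjusted p = 0.00191). Myod1 measured 14410, 15734 and 16673 in SIX2 and 16252, 17103 and 19016 in control libraries, a change of -0.15 ± 0.05 (adjusted p = 0.0304). Both changes are small, and under quantile normalization Myog was at -0.04 (adjusted p = 0.432). The Myod1 call was lost in 10 of 28 alternatives, with adjusted p up to 0.342 when the GC trend was removed. It was lost without any 1 of GFP-positive SIX2 replicate 2, GFP-negative SIX2 replicates 2 and 3, GFP-positive control replicate 2 and GFP-negative control replicate 3, and Myod1 was called in neither population alone (adjusted p = 0.188 in GFP-positive and 0.0892 in GFP-negative cells). Mef2c, a partner of the MYOD family, was at -0.23 (adjusted p = 0.000422).

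Of 8 tested genes of the SIX-EYA-DACH network 0 were higher and 1 lower, against 16.9% of all genes each way. Six4 was not called (-0.12, adjusted p = 0.491), with 0.064 in GFP-positive and -0.31 in GFP-negative cells. Promoter windows holding TGATAC, a core bound by SIX-family homeodomains, made up 3.112% of the genes called higher, 3.219% of those called lower and 2.911% of all. AGGTTTC, the end of the MEF3 element of muscle promoters, was in 3.059% of windows of genes called higher, 3.799% of those called lower and 4.02% of all. These shares lie close to those of all windows in both directions, and say nothing of binding elsewhere.

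Genes of the contractile apparatus were mostly lower in SIX2 libraries, 36 of 51 tested against 6 higher, with a median change of -0.37 (-0.35 in GFP-positive and -0.38 in GFP-negative cells). Tnnt1, slow troponin T, measured 22554, 25134 and 28943 in SIX2 libraries and 36299, 40372 and 48894 in control libraries, a fall of -0.68 ± 0.05 (adjusted p = 1.25e-07). Klhl41, which protects the thin filament protein nebulin, measured 12816, 13493 and 14796 in SIX2 and 18590, 21484 and 24125 in control libraries (-0.65 ± 0.05, adjusted p = 1.56e-07). Neither pair of ranges overlaps, and Tnnc1, slow and cardiac troponin C, was lower likewise (-0.58). Members that went the other way included Tpm3, a slow tropomyosin that also has non-muscle isoforms, at 8813, 9525 and 10042 in SIX2 and 4170.4, 4648 and 5108 in control libraries (1.04 ± 0.06), and Myoz1, a fast-fibre Z-disc protein (1.18 ± 0.15). Tmod4, Xirp2, Mybpc1 and Tmod1 were the other 4 that rose.

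E-boxes, CANNTG, are the sites of the MYOD family. They were in 34 of 40 windows of the contractile list (85%), against 62.97% of all tested windows. By call, they were in 63.11% of windows of genes called lower and 60.6% of those called higher. The excitation-contraction coupling list, which mostly fell, had 68.75%, and the matrix glycoprotein list, most of whose tested genes rose, had 72%. TGATAC was in 4 of the 40 contractile windows (10%), in 3 of 25 windows of the matrix glycoprotein list (12%) and in 2.911% of all. The windows of Tnnc1 (chr14:31208062-31208361, plus strand) and Klhl41 (chr2:69669870-69670169, plus strand) are given as examples of genes that fell, with these letters in capitals.
Tnnc1: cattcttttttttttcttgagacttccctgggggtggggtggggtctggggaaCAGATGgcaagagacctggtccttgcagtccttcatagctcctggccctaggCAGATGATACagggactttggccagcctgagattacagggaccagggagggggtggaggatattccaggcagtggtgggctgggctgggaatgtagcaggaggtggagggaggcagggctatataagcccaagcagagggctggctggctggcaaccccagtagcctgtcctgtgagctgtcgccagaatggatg
Klhl41: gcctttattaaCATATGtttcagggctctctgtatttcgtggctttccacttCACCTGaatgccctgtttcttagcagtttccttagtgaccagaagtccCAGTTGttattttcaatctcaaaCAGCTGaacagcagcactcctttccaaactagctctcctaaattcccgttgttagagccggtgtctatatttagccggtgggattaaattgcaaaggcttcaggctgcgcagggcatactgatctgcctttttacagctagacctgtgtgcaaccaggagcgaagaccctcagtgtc
In Tnnc1 the E-boxes begin at -197 and -145 and a TGATAC begins at -141, so that it shares letters with the nearer E-box. Klhl41 holds E-boxes at -239, -198, -150 and -127 and no TGATAC in this window.

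Excitation-contraction coupling followed the same direction, with 20 of 28 tested genes lower and 2 higher and a median of -0.47. Cacna1s, the voltage sensor of the transverse tubule, measured 5789, 7647 and 10268 in SIX2 and 11993, 13014 and 14266 in control libraries, a fall of -0.77 ± 0.08 (adjusted p = 5.41e-06) with no overlap. Its gamma subunit gene Cacng1 was at -0.53 and the calcium store protein gene Casq2 at -0.51. The 2 that rose were Sln, which uncouples the calcium pump (0.58), and Atp2a1, the fast-fibre pump itself (0.27). Of 18 tested neuromuscular junction genes 9 were lower and 2 higher. Chrng, the gamma subunit of the embryonic acetylcholine receptor, measured 19221, 22727 and 25197 in SIX2 and 28821, 31268 and 33682 in control libraries (-0.47 ± 0.05, adjusted p = 4.1e-06). Erbb2, a neuregulin receptor that overlaps Mien1, was at -0.82 and Erbb3 at -0.55. The higher ones were Etv5, a transcription factor induced by ERK signalling (0.78), and Chrne, the adult receptor subunit, at 6.01, 11.8 and 17.9 in SIX2 and 2.14, 3.77 and 6.57 in control libraries, which overlap (1.32, adjusted p = 0.0247).

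Myoblast fusion genes split, 5 of 21 tested higher and 7 lower, against 16.9% of all genes each way. Mymx, one of the pair of membrane fusogens of myoblasts, measured 2193, 2420 and 2640.3 in SIX2 and 4016, 4183 and 4949.9 in control libraries, a fall of -0.85 ± 0.05 (adjusted p = 6.81e-08) with no overlap. Its partner Mymk was at -0.37 ± 0.07 (adjusted p = 0.000572). Dock1, a RAC activator, and Ehd2, a membrane-remodelling ATPase, rose by 0.95 and 0.93. Of 18 dystrophin complex genes, 9 were lower and 1 higher. The largest fall was in Nos1, the neuronal nitric oxide synthase anchored there, at 35.6, 55.9 and 81.4 in SIX2 and 214, 286 and 311 in control libraries (-2.28 ± 0.20, adjusted p = 1.05e-06), although it overlaps Gm26995. Sntb1, a syntrophin, was at -0.65, and the higher one, Lama2, a laminin chain that the complex holds, was at 0.38.

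Of 14 tested caveola genes 6 were higher and 7 lower. Cavin2, a coat protein best known from endothelium and fat, measured 731, 1042 and 1168 in SIX2 and 134, 169 and 369 in control libraries (2.34 ± 0.20, adjusted p = 8.71e-07). Cav1, Cav2 and Cavin3, of the same broad class, were at 0.98, 0.76 and 0.85. The muscle forms Cav3 and Cavin4 were lower, at -0.23 (adjusted p = 0.00592) and -0.47. Pacsin1, a membrane-bending protein best known from neurons, had one of the largest falls, to 41.1, 75.6 and 94.2 in SIX2 libraries against 404, 448 and 488 in control libraries (-2.71 ± 0.18, adjusted p = 8.95e-08), and its muscle relative Pacsin3 was at -0.44.

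**Figure D3:**
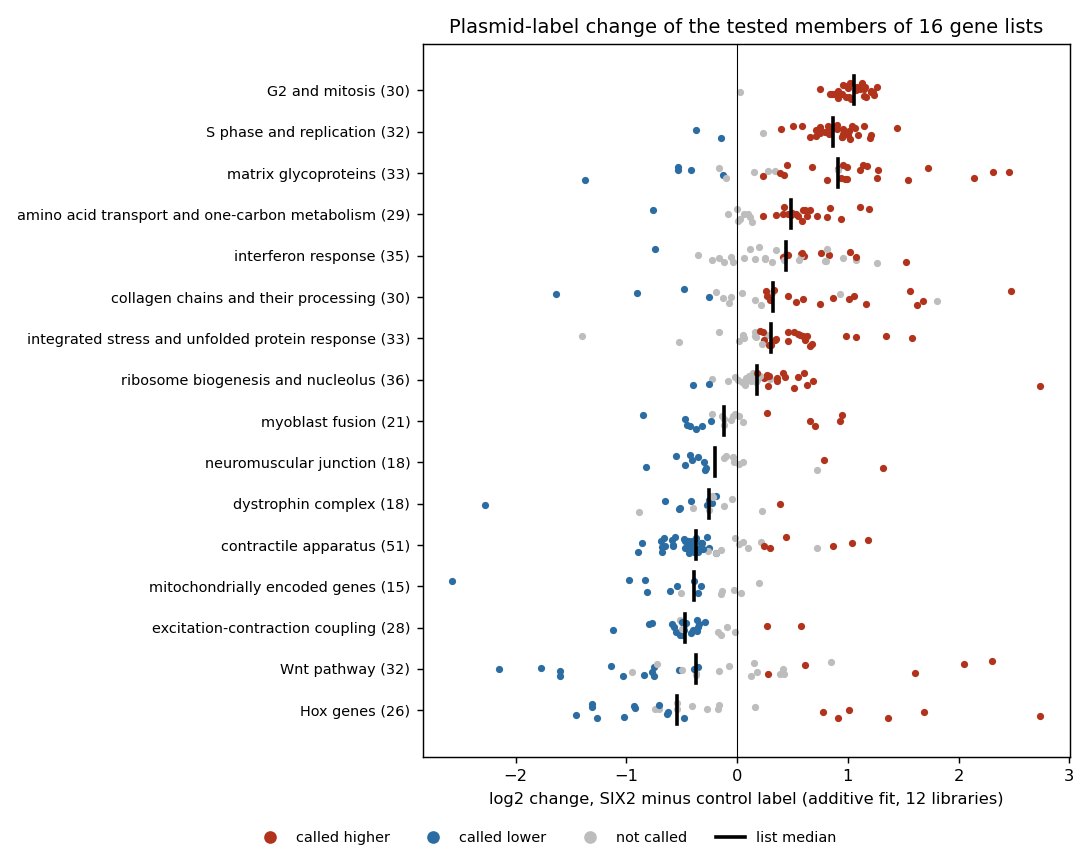
Plasmid-label change (log2, SIX2 minus control, additive fit over 12 libraries) of every tested member of 16 gene lists, with the number tested in brackets; red points are called higher, blue points called lower, grey points not called, and bars are list medians. Medians run between 1.05 for G2 and mitosis and -0.54 for Hox genes.

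Matrix genes held several of the largest increases. Of 33 tested matrix glycoproteins 22 were higher and 5 lower, with a median of 0.91 (0.99 in GFP-positive and 0.64 in GFP-negative cells). Postn (chr3:54361109-54391037, plus strand), periostin, a matrix protein of injury and remodelling, measured 679, 934 and 1148 in SIX2 and 119.8, 183 and 278 in control libraries, a rise of 2.31 ± 0.11 (adjusted p = 1.24e-08). Spp1, osteopontin, had the smallest p of all genes, at 53930, 70257 and 85051 in SIX2 and 19602, 22975 and 29605 in control libraries (1.54 ± 0.06, adjusted p = 2.03e-09), with Gm42793 overlapping it. Both separated the labels fully. The anti-angiogenic thrombospondins Thbs1 and Thbs2 rose by 1.18 ± 0.07 and 2.14 ± 0.15, and Tnc, tenascin C, by 0.99 ± 0.12. The lower members were Mfap4, an elastic fibre protein (-1.38), Hspg2, Ogn, Lamb2 and Sparc (-0.13). The 5 are named because they ran against the rest.

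Of 30 tested collagen and collagen-processing genes 16 were higher and 4 lower (median 0.32). Col1a1 (chr11:94936224-94953042, plus strand), a chain of the main fibrillar collagen, measured 801, 939 and 1245 in SIX2 and 116, 163 and 336 in control libraries, a rise of 2.47 ± 0.21 (adjusted p = 8.85e-07). Its partner chain Col1a2 measured 5970.5, 6308 and 6929 in SIX2 and 2151, 2869 and 3768 in control libraries (1.16 ± 0.09, adjusted p = 6.15e-07). Col8a1, a short-chain network collagen, rose by 1.68 ± 0.12, whereas Col8a2, the other chain of that collagen, was at -1.64 ± 0.31 (adjusted p = 0.00082). Col25a1, a membrane collagen needed for motor innervation, Loxl1, a crosslinking oxidase, and P3h1, a prolyl hydroxylase, were the other 3 that fell. Of 27 metalloproteinases, ADAMs and inhibitors, 3 were higher and 6 lower, against 16.9% of all genes each way. Adamts5, which cleaves versican, was at 1.49 and Adam9 at -0.45.

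Adhesion genes went both ways, 13 of 40 higher and 9 lower, against 16.9% of all genes each way. Vcam1, a satellite cell adhesion molecule, measured 889, 1059 and 1286 in SIX2 and 290.2, 379 and 476 in control libraries, a rise of 1.52 ± 0.10 (adjusted p = 8.26e-08). Cdh11, a cadherin of mesenchymal cells, rose by 1.75 ± 0.17 and the hyaluronan receptor gene Cd44 by 0.79. Serpine2, a secreted protease inhibitor, measured 353, 406 and 572 in SIX2 and 72.6, 93.5 and 116 in control libraries, a rise of 2.19 ± 0.12 (adjusted p = 1.97e-08), with no overlap.

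Since collagens and periostin are also products of other cells in muscle, markers of those cells are set beside them. Of 9 fibro-adipogenic markers in the table, 6 were tested and 2 were higher: Ly6a, at 23.4 to 39.1 in SIX2 and 2.53 to 10.7 in control libraries, and Smoc2, at 72.1 to 283 in SIX2 and 19.1 to 70.7 in control libraries. The defining marker Pdgfra spanned 0 to 16.5 in SIX2 and 5.63 to 27.0 in control libraries without a call, and Dcn reached at most 1.80 in any library. The list summed to 2974 to 3191 in GFP-positive SIX2 libraries and 2775 to 3269 in GFP-positive control libraries, and to 3411 to 3810 and 3404 to 3794 in GFP-negative SIX2 and control libraries, most of it Gsn, which muscle cells also express. Endothelial Pecam1 reached at most 13.2, the macrophage markers Adgre1 and Lyz2 1.43 and 1.88, and the adipocyte marker Fabp4 1.80. Of the tested markers of these types, Egfl7 (1.05), Csf1r (2.25), Car3 (1.14) and Lpl (0.73) were higher, while Vwf (-1.34) and Pparg (-0.93) were lower. Schwann cell markers had 0 of 4 higher and 2 lower, Ngfr (-1.15) and Erbb3. Tendon markers had 2 of 8 higher, Mkx and Tnc, and 2 lower, Scx and Cilp2. Adipocyte markers, of which 3 of 4 in the table were tested and most of the sum is Car3, summed to 36576 to 42060 in SIX2 and 18061 to 20257 in control libraries of GFP-positive cells, and to 34104 to 36766 in SIX2 and 14589 to 17468 in control libraries of GFP-negative cells. Tendon markers summed to 7305 to 8545 in SIX2 and 5623 to 7045 in control libraries of GFP-positive cells, and to 7340.1 to 9482 in SIX2 and 5870.1 to 7111 in control libraries of GFP-negative cells. Tnc, which is also among the matrix genes above, held 5218 to 7375 in SIX2 and 2262 to 4087 in control libraries. Schwann cell markers summed to 2899 to 3372 in SIX2 and 3958 to 4648 in control libraries of GFP-positive cells, and to 2236 to 2980.1 in SIX2 and 3933 to 4660 in control libraries of GFP-negative cells. Most of the Schwann cell sum is Erbb3. The summed muscle markers were 272250 to 303750 in SIX2 and 317700 to 338240 in control libraries of the GFP-positive cells, and 224360 to 253250 in SIX2 and 313720 to 332090 in control libraries of the GFP-negative cells. Most of that sum is Des and Myog, which were both lower. Of the 12 tested muscle markers 5 were higher, Pax7, Myf5, Vcam1, Sdc4 and Fgfr4. The 4 lower ones were Myod1, Des, Itga7 and Myog. Endothelial markers, of which 2 of 10 were tested, summed to 100.95 to 154 in SIX2 and 119.6 to 154 in control libraries of GFP-positive cells, and to 55.9 to 128 in SIX2 and 105 to 159 in control libraries of GFP-negative cells. Immune markers, of which 3 of 7 in the table were tested, summed to 80.4 to 119 in SIX2 and 103 to 108 in control libraries of GFP-positive cells, and to 70.5 to 104 in SIX2 and 98.3 to 116 in control libraries of GFP-negative cells. The pericyte list had 3 of 8 higher, Notch3, Pdgfrb and Mcam, and 2 lower, Cspg4 and Des. Its defining smooth muscle marker Myh11 reached at most 8.93. Acta2 was not called, at 46997 to 55460 in SIX2 and 51196 to 57657 in control libraries. The pericyte list summed to 183420 to 199490 in SIX2 and 212810 to 232350 in control libraries of GFP-positive cells. In GFP-negative cells it summed to 148950 to 163480 in SIX2 and 213680 to 242110 in control libraries. Most of the pericyte sum is Des and Acta2. What part a difference in cell mixture has in the matrix result was not tested.

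Genes were ranked here only if they had an assigned symbol, were called and averaged 50 or more in either label. A lack of overlap between labels within each population was also required, so it is not a result for these genes. The largest increase among them was in Alx4 (chr2:93642384-93681339, plus strand), a homeodomain factor of limb and skull patterning. Alx4 measured 63.2, 96.1 and 127 in SIX2 libraries, against 0, 3.56 and 8.72 in control libraries. The change was 4.75 ± 0.48 (adjusted p = 3.88e-06), with 5.04 in GFP-positive and 4.46 in GFP-negative cells. Prr9, a proline-rich protein gene, followed with 107, 151 and 225 in SIX2 and 7.65, 29.2 and 42.8 in control libraries (2.75 ± 0.25). The others of at least 2.05 that are not described elsewhere were Pcdh19, a protocadherin (2.19; antisense to Gm26851), Cpne4, a copine (2.12), and Pcp4l1, a relative of the calmodulin regulator PCP4 (2.10). Gria3, a glutamate receptor subunit, was at 2.04, Tmeff2, a transmembrane follistatin-domain protein, at 2.04, and Ifi211, an interferon-inducible gene, at 2.00.

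Under the same conditions, the largest fall was in Nr2e3, a nuclear receptor best known from photoreceptors, which shares bases with Gm15507. Nr2e3 measured 0.714, 3.34 and 7.82 in SIX2 and 47.1, 60.3 and 88.6 in control libraries (-3.96 ± 0.40, adjusted p = 3.72e-06). Clip4, a microtubule-tip protein gene, measured 4.88, 6.90 and 16.4 in SIX2 and 70.4, 88.3 and 108 in control libraries (-3.23 ± 0.32, adjusted p = 3e-06). Prr32 (-2.86), Shox2, a limb homeodomain factor that overlaps Rsrc1 (-2.28), and Mss51, a mitochondrial protein gene of fast muscle (-2.08), were other large falls not described elsewhere. Cilp2, a cartilage and tendon matrix gene, fell to 159, 232 and 303 in SIX2 libraries against 831, 942 and 1253 in control libraries (-2.09 ± 0.09, adjusted p = 7.61e-09). Csf2rb2, a cytokine receptor subunit gene, measured 15.6, 17.2 and 41.4 in SIX2 and 44.4, 96.9 and 146 in control libraries. Pck1, the first enzyme of gluconeogenesis, was at -1.94.

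Beside Spp1, Gdf5, Postn, Cilp2, Nrp1 and Spc24, the 10 smallest p-values belonged to 4 genes with changes near 2-fold. Gbp6, an interferon-inducible GTPase, measured 12791, 13691 and 15180 in SIX2 and 5616, 6683 and 7009 in control libraries (1.11 ± 0.05). Car3, the carbonic anhydrase of slow muscle and fat, measured 33519, 35979 and 41434 in SIX2 and 13854, 16961 and 19374 in control libraries (1.14 ± 0.06). Ckb, brain-type creatine kinase, was lower, at 4829, 5708 and 6339 in SIX2 and 10468, 10934 and 12199 in control libraries (-0.96 ± 0.05, adjusted p = 1.88e-08), as was Msln, mesothelin (-0.95 ± 0.05). All 4 had no overlap between labels.

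Within the Notch pathway, which keeps satellite cells undifferentiated, 5 of 20 tested genes were higher and 7 lower. Over all genes the share was 16.9% each way. The receptor gene Notch3 measured 208, 272 and 352 in SIX2 and 73.7, 100.2 and 137 in control libraries (1.46 ± 0.16, adjusted p = 1.06e-05), the target Heyl measured 489, 599.6 and 668 and 209, 224 and 368 in the same order (1.24 ± 0.14), and Notch1 was at 0.89. The remaining 2 that rose were the ligand gene Jag1 (0.67) and the coactivator gene Maml2 (0.73). Lfng, which glycosylates Notch receptors, fell to 379, 704 and 820.0 in SIX2 libraries against 1547, 1928 and 2524 in control libraries (-1.62 ± 0.15, adjusted p = 2.23e-06). The ligand genes Dll1 and Jag2 were at -0.46 and -0.67. Notch3 overlaps Gm17276.

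In the Wnt pathway 5 of 32 tested genes were higher and 13 lower, with a median of -0.37. Among ligands, Wnt5a, of the beta-catenin-independent branch, measured 37.5, 47.0 and 62.6 in SIX2 and 2.29, 12.3 and 17.4 in control libraries (2.30 ± 0.39, adjusted p = 0.000413; it overlaps Gm2670). Wnt10a went the other way, at 7.79, 19.1 and 22.8 in SIX2 and 53.5, 73.7 and 122 in control libraries (-2.15 ± 0.29, adjusted p = 5.05e-05). Wnt11, Wnt9a and Wnt4 were at -1.77, -0.84 and -0.77. The receptor gene Fzd4 rose to 226, 297 and 316 in SIX2 libraries against 21.1, 79.8 and 121 in control libraries (2.05 ± 0.31), and the antagonist gene Dkk3 was at 1.61 (adjusted p = 0.0197). Axin2 and Nkd1, feedback genes that beta-catenin induces, were at -1.60 and -1.03. The count of 5 higher was 3 without any 1 of several libraries, GFP-negative control replicates 1, 2 and 3, GFP-negative SIX2 replicates 1 and 2 and GFP-positive control replicate 3, and 2 without GFP-negative SIX2 replicate 3.

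The BMP ligand with the largest change was Gdf5 (chr2:155941023-155945367, minus strand), a factor of joint formation and muscle maintenance, which measured 91.4, 142 and 174 in SIX2 and 1026, 1109 and 1244 in control libraries. The fall was -3.06 ± 0.14 (adjusted p = 7.61e-09), without overlap, and Gm15557 lies on the opposite strand of the gene. Of 31 BMP and GDF genes 9 were higher and 8 lower, against 16.9% of all genes each way. Bmp2 and Bmp8b were lower (-1.42 and -2.04), and so were the extracellular antagonists Nog (-1.81; -0.96 in GFP-positive and -2.65 in GFP-negative cells) and Chrd (-0.87). Gdf15, a stress-induced ligand (1.20), the antagonist gene Grem1 (0.76) and the target Id3 were higher. Bmp8b overlaps Gm17244 and Ppie.

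Of 31 TGF-beta and activin genes 8 were higher and 9 lower, against 16.9% of all genes each way. Mstn, myostatin, the main brake on muscle growth, measured 940.1, 1167 and 1389 in SIX2 and 488, 506 and 563 in control libraries (1.14 ± 0.10, adjusted p = 8.94e-07). Ccn2, a target of TGF-beta and YAP, measured 1159, 1241 and 1331 in SIX2 and 411, 519.8 and 593 in control libraries (1.31 ± 0.09, adjusted p = 1.46e-07). Both separated the labels. Inhba, the activin subunit, rose by 1.46. The ligand genes Tgfb1 and Tgfb2 (-1.49 and -0.68), the activin antagonist gene Fst and Tgfbi (-2.28) were lower. Fst spanned 1489.8 to 3833 in SIX2 and 3551 to 8716 in control libraries, which overlap.

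**Figure D4:**
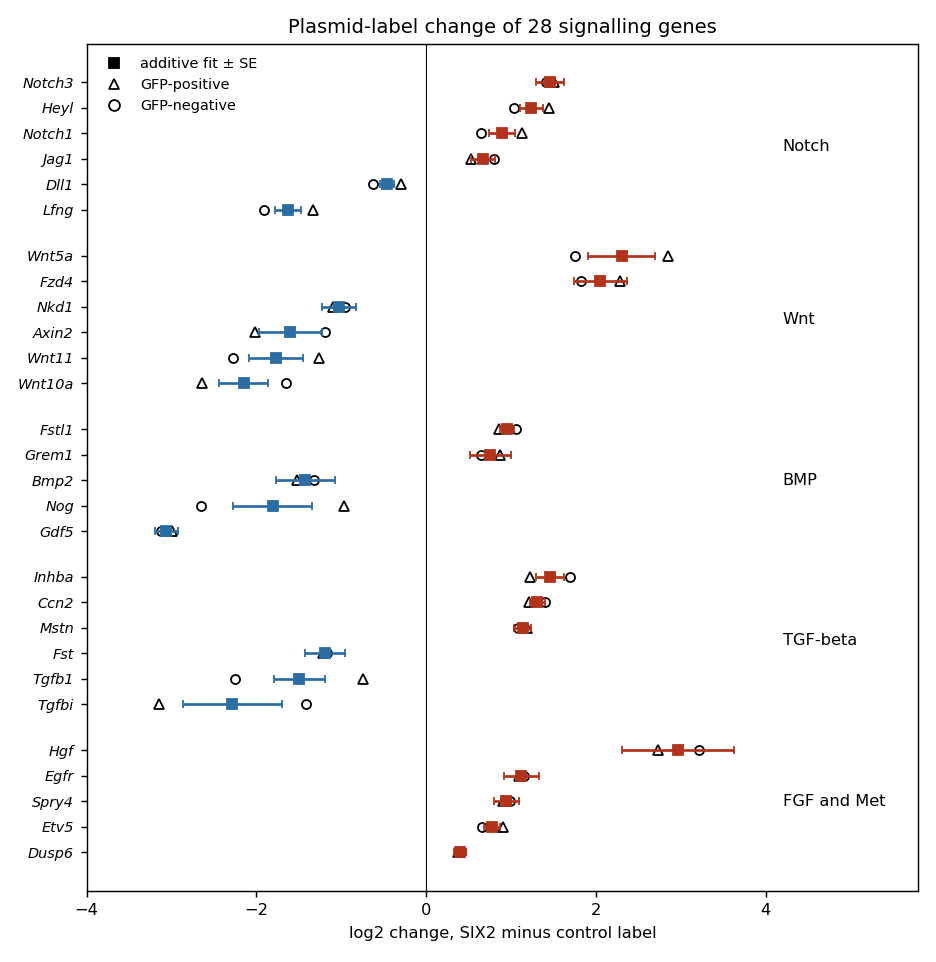
Plasmid-label change (log2, SIX2 minus control) of 28 called Notch, Wnt, BMP, TGF-beta and receptor tyrosine kinase pathway genes; squares with bars are the additive fit ± SE over 12 libraries, triangles GFP-positive and circles GFP-negative estimates. Most population estimates lie close to the additive one, while those of Nog are -0.96 in GFP-positive and -2.65 in GFP-negative cells.

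Of 36 FGF, MET and ERK feedback genes 12 were higher and 6 lower. Hgf, the ligand of MET that activates satellite cells, was low throughout, at 8.14, 20.3 and 34.99 in SIX2 and 0, 2.14 and 10.7 in control libraries, which overlap (2.97 ± 0.66, adjusted p = 0.00291). Egfr was at 1.12 ± 0.21, and the ERK feedback genes Spry4 and Dusp6 at 0.95 and 0.39. Fgf5 was lower (-0.92). The insulin-like growth factor genes Igf1 and Igf2 were at -0.62 and -0.55, and 2 of 20 genes of that pathway were higher, Grb10, an adaptor that restrains its receptors (0.60), and Igfbp4 (0.92), against 4 lower. The count of 2 was 4 without GFP-positive SIX2 replicate 2 or GFP-positive control replicate 2. Hippo and YAP targets had 7 of 26 higher and 3 lower, or 5 lower without GFP-positive SIX2 replicate 1 or GFP-negative control replicate 1. Of all genes, 16.9% were called each way.

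Of 53 axon guidance genes 12 were higher and 13 lower, against 16.9% of all genes each way. In the fit with group means the counts were 13 higher and 5 lower in GFP-positive cells, and 10 higher and 8 lower in GFP-negative cells. Nrp1, the coreceptor of class 3 semaphorins and VEGF, measured 534, 573 and 605 in SIX2 and 182, 202 and 231 in control libraries (1.48 ± 0.08, adjusted p = 1.88e-08), without overlap. Its ligand gene Sema3a rose by 1.32, while Sema3b was at -1.03. Slit2 measured 18.0, 24.9 and 33.9 in SIX2 and 0, 2.55 and 12.2 in control libraries (2.88 ± 0.53, adjusted p = 0.000781). Of 36 G-protein coupled receptors 12 were higher and 6 lower. Avpr1a, a vasopressin receptor, measured 109, 171 and 247 in SIX2 and 16.6, 34.7 and 64.3 in control libraries (2.25 ± 0.31; 3.15 in GFP-positive and 1.35 in GFP-negative cells). The alpha-1 adrenergic receptors parted, Adra1a at 1.93 and Adra1b at -1.65. Of 30 voltage-gated and other ion channels 5 were higher and 9 lower.

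Of 26 tested Hox genes 6 were higher and 11 lower, against 16.9% of all genes each way. The 6 higher ones were Hoxa9, Hoxa10, Hoxa11, Hoxc10, Hoxc11 and Hoxc13. Hoxc10 measured 191, 218 and 242 in SIX2 and 63.6, 83.6 and 114 in control libraries (1.36 ± 0.15, adjusted p = 7.44e-06), and Hoxa9 423, 487 and 545 and 244, 286 and 330.4 in the same order (0.77 ± 0.10, adjusted p = 4.72e-05). Lower ones included Hoxc8, at 19.5, 37.7 and 50.5 in SIX2 and 71.4, 104 and 135 in control libraries (-1.45 ± 0.17, adjusted p = 1.37e-05), and Hoxc6, at 92.8, 139 and 171 in SIX2 and 256, 336 and 382 in control libraries (-1.27 ± 0.15). Hoxa5, Hoxb3 and Hoxb5 were at -1.31, -1.31 and -1.02, and Hoxa7, Hoxb6, Hoxb7, Hoxc4 and Hoxc5 fell too. Hox transcripts share exons and have antisense partners, such as Hoxc10 with Hoxc5 and Hoxa11 with Hoxa11os, so reads may be split between them.

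Of 6 tested T-box genes 1 was higher, the hindlimb factor gene Tbx4 (0.54), and 4 were lower. Tbx1, a factor of head muscle, measured 22.8, 96.6 and 153 in SIX2 and 141, 504 and 687 in control libraries, with overlap (adjusted p = 0.00033). Tbx3, a limb factor, measured 418, 475 and 528 in SIX2 and 728, 961 and 1435 in control libraries (-1.10 ± 0.12, adjusted p = 7.1e-06). Other homeobox and patterning genes had 8 of 38 higher and 10 lower, against 16.9% of all genes each way. Emx2, a limb girdle and brain factor that overlaps Emx2os, was at -1.61 and Irx5 at -1.84.

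Stress and growth metabolism rose in many members and fell in few. Of 33 genes of the integrated stress and unfolded protein responses 21 were higher and 0 lower, with a median of 0.31. Trib3, a pseudokinase that ATF4 induces, measured 502, 639.5 and 777 in SIX2 and 173, 203 and 256 in control libraries (1.58 ± 0.11, adjusted p = 1.46e-07). The serine pathway genes Psat1, Phgdh and Shmt2 were at 0.63, 0.59 and 0.55. Of 29 amino acid transport and one-carbon genes, some of which are also ATF4 targets, 20 were higher and 1 lower. Bcat1, which transaminates branched-chain amino acids, measured 1649, 1808 and 1936 in SIX2 and 694, 832 and 947 in control libraries (1.11 ± 0.06, adjusted p = 3.59e-08), and the lower one was Gldc, a glycine decarboxylase (-0.76). Ribosome biogenesis genes had 16 of 36 higher and 2 lower, with Dkc1, a pseudouridine synthase, at 0.69, Npm1 at 0.43, and Myc, which drives such genes, at 0.63. Its relative Mycn spanned 8.14 to 19.5 in SIX2 and 0 to 6.64 in control libraries (2.74 ± 0.59, adjusted p = 0.00242). Ribosomal protein genes depended on scaling, with 2 of 45 higher and 12 lower here but 6 and 6 under quantile normalization, and 6 lower without GFP-negative SIX2 replicate 2. Over all genes 16.9% were called each way, and in the highest class of mean level 31.0% were called lower.

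Of 27 p53 target genes 11 were higher and 4 lower. Ccng1, a cyclin induced by p53, measured 15166, 15942 and 18732 in SIX2 and 9695, 10022 and 10610 in control libraries (0.70 ± 0.05, adjusted p = 2.83e-07), and Zmat3 rose by 0.78. Gtse1 and Ckap2, which are also mitotic genes, rose by 1.11 and 1.04. Heat shock genes went the other way, 2 of 23 higher and 12 lower, with the small chaperones Cryab and Hspb1 at -0.71 and -0.53 and their cochaperone Bag3 at -0.50. Of 33 lysosome and autophagy genes 13 were lower and 6 higher, among them Trim63, a ubiquitin ligase of muscle wasting (-0.79). Immediate early genes had 7 of 30 higher and 6 lower, near the 16.9% of all genes called each way.

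None of the 15 genes encoded by mitochondrial DNA was higher and 9 were lower (median -0.39). mt-Nd5, a subunit of respiratory complex I, measured 34655, 36960 and 40735 in SIX2 and 56714, 68126 and 72585 in control libraries (-0.82 ± 0.07, adjusted p = 7.58e-07). Labels did not overlap for it. mt-Nd6, on the opposite strand and touching mt-Nd5, was at -0.98, and mt-Nd4l had the largest fall of the list (-2.57 ± 0.83, adjusted p = 0.0266), with overlapping labels. Nuclear respiratory chain genes had 5 of 47 higher and 14 lower, or 7 lower under quantile normalization. Glycolysis and hypoxia genes had 12 of 38 higher and 6 lower, with the phosphofructokinase genes parting: Pfkp, the platelet form, was at 0.40 and Pfkm, the muscle form, at -0.35. Pgam2, the muscle form of phosphoglycerate mutase, was at -0.44. Cholesterol and fatty acid synthesis had 10 of 38 higher and 13 lower. The share over all genes was 16.9% each way, and 31.0% were called lower in the highest class of mean level.

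Interferon response calls moved with the libraries and the covariate. Of 35 tested, 10 were higher and 1, Xaf1, was lower (-0.74) with the GFP label in the model, and 5 were higher without it. Fitted alone, GFP-positive libraries gave 3 higher and GFP-negative libraries 21. The median change was 0.44, with 0.16 in GFP-positive and 0.62 in GFP-negative cells. Ifi204, a DNA sensor, measured 76.5, 122 and 201 in SIX2 and 19.4, 48.5 and 64.2 in control libraries (1.52 ± 0.26, adjusted p = 0.000386). Oasl1, an antiviral gene, was 1.02 in the additive fit with an adjusted p of 0.000644, and without the covariate its adjusted p was 0.578. Ifitm3, a membrane restriction factor, was at 0.75 (adjusted p = 2.16e-05, or 0.0623 without the covariate). Ifit1 averaged 0.25 (adjusted p = 0.609) because its estimates had opposite signs, -0.79 in GFP-positive and 1.29 in GFP-negative cells.

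Across all genes the GFP label itself was called for 109 (0.748%), 31 higher in GFP-positive libraries (0.213%) and 78 lower (0.535%), and 65 of them were also called for plasmid label. The median size of the change was 0.25 for plasmid label and 0.124 for GFP label. Leaving out the covariate gave 4615 plasmid calls in place of 4926.

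A set of 8 genes had the smallest p among those called in neither population on its own, and was picked for that. P2rx1, an ATP-gated channel, measured 21.4, 31.7 and 37.4 in SIX2 and 3.96, 12.1 and 19.7 in control libraries, without overlap. Its change was 1.49 ± 0.36 (adjusted p = 0.00542), while the adjusted p was 0.0564 within GFP-positive and 0.0507 within GFP-negative cells. Nhlrc4, a NHL repeat gene, was at 2.44, Htr1b, a serotonin receptor, at 1.29, and Pdss1, an enzyme of coenzyme Q synthesis that overlaps Abi1, at 0.33. Pusl1, which overlaps Ints11, was at 0.29. Galnt17, a glycosyltransferase, Sema3d, a semaphorin, and Il17ra, the interleukin 17 receptor, were at -0.63, -0.36 and -0.28.

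The 6 genes with the smallest p for a difference between populations all had an interaction adjusted p of 0.0751, so none was called. Odc1, the first enzyme of polyamine synthesis, measured 1001, 1119.5 and 1459.5 in SIX2 and 1000.5, 2129 and 3284 in control libraries, an average of -0.72 ± 0.22 (adjusted p = 0.0226) made of 0.031 in GFP-positive and -1.47 in GFP-negative cells. Hras, a small GTPase of growth factor signalling, was at -0.054 in GFP-positive and -1.53 in GFP-negative cells, and Bri3, a brain and lysosomal membrane protein gene, at -0.084 and -1.80 in that order. These genes were picked for that difference, so the paired values are a description only. The other 3 were Rab11fip5, Btbd1 and Ankib1, at -0.14, -0.17 and 0.48 in GFP-positive and -1.14, -1.08 and -0.97 in GFP-negative cells.

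Calls depended on level and went with base composition. Over 4 equal classes of mean level, lowest to highest, 9.60%, 21.7%, 19.6% and 16.7% of genes were called higher and 5.54%, 11.6%, 19.4% and 31.0% lower. Genes called higher had a median mean of 428 normalized counts and a median GC content of 48.37%, those called lower 1087 and 51.31%, and those not called 250 and 49.08%. Over 10 equal classes of GC content, the median change in the lowest was 0.07, with -0.02 in GFP-positive and 0.18 in GFP-negative cells. In the highest class it was -0.11, with -0.04 in GFP-positive and -0.17 in GFP-negative cells. With that trend removed, 5168 genes were called, and 4560 of the 4926 kept their call. The part of base composition in single genes was not tested. At the filter's edge, 318 genes reached 10 in exactly 3 libraries, with means of 3.47 to 15.4, and 507 reached it in exactly 2 and were left out, with means of 2.13 to 140.

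**Figure D5:**
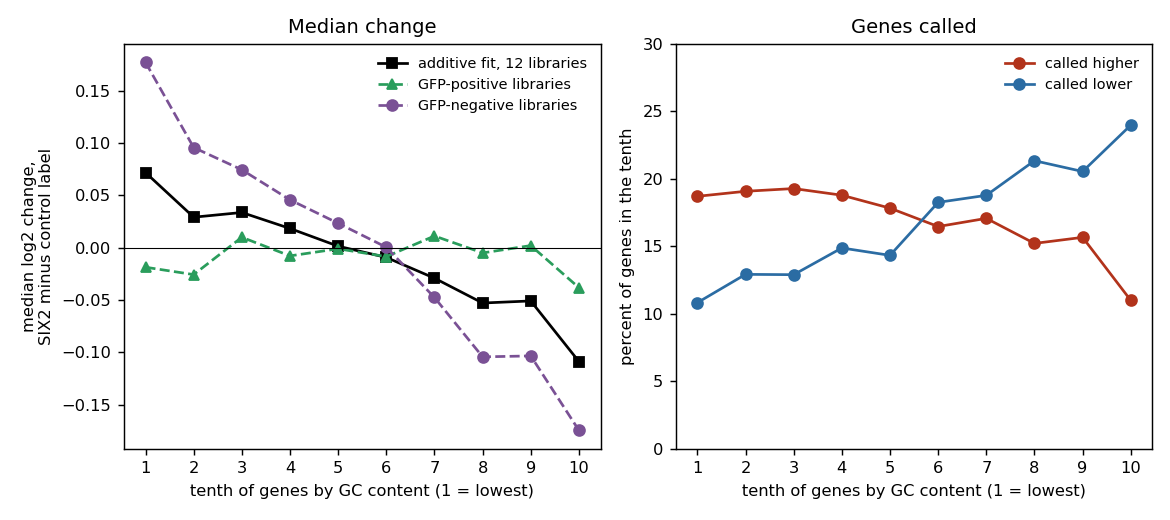
Left, median plasmid-label change (log2, SIX2 minus control) over 10 equal classes of genes by GC content, lowest to highest, in the additive fit and within GFP-positive and GFP-negative libraries; right, the percentage of genes called in each class. The additive median runs between 0.07 in the lowest class and -0.11 in the highest.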

How the data were processed

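The authors deposited 1 table of gene values for the 12 libraries, which are counts divided by size factors, a normalized signal. Per the submitters' processing notes, STAR 2.7.11a, RSEM 1.3.3, FastQC 0.12.1, MultiQC 1.19 and DESeq2 1.42.0 were used with the GRCm38 genome. Per the labels' protocols, cDNA was made by SMART-Seq2 and fragmented with Tn5. Whole reads were recovered from the value steps in 100% of values (tolerance 1e-04), and the count tests on them, added beside the plan's tests, called 4908 genes with edgeR 4.0.16 and 5284 with DESeq2 1.42.0.

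The plasmid effect was fitted with limma 3.58.1 in R 4.3.3 (trend and Benjamini-Hochberg adjustment) on log2(value + 1), which understates changes of low genes, with the GFP label as covariate. The interaction and the within-population effects came from a fit with 4 group means. Genes needed at least 10 in at least 3 libraries. On simulated counts for the plasmid comparison, the fit recovered 71% of 100 genes changed 1.5-fold and 89% of 100 changed 2-fold. It made 6 false calls among 14112 unchanged genes. The changed genes had means above 50, libraries were drawn independently and no GFP effect was put in. These rates need not hold for the data, where 33.8% of genes were called. Replicates of a group were distinct libraries, since chi-square per degree of freedom between any pair was at least 7.69. Gene coordinates and overlaps come from the GRCm38 annotation, and promoter windows from RefSeq.

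The members and the 56 gene lists were chosen with earlier results of these data known. Described genes include up to 15 per direction with the largest change. These were called, averaged 50 or more in either label and had no overlap between labels within either population. Also included were the 10 smallest p-values and up to 4 called members of each list. The 8 genes with the smallest p called only in the additive fit were included too. Gm numbers, Rik names, bare identifiers and symbols ending in -ps or -rs were left out. Other genes were chosen after their values were seen. Some genes picked in these ways are not reported here. Alternatives covered the pseudocount, the low-value filter, scaling, covariate, weights, count tests, thinning, the replicate block and each library left out.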

Additional observations from a re-analysis of the deposited data

Results flagged for a closer look

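A total of 7 values lay far from the other 5 libraries of their plasmid label, out of 88 groups of 6 read in 44 genes. For 6 draws from a single normal distribution the rule flags about 1 group in 20. Each group here mixes 2 sorted populations and many of the genes were picked from these data, so that rate need not hold. Of the 7 values, 3 came from GFP-positive SIX2 replicate 3: Six2 at 6.51 (others 19.2 to 28.6), Tbx1 at 22.8 (others 83.8 to 153) and Pax7 at 184 (others 159 to 166). GFP-positive SIX2 replicate 2 was low for Pax3, at 3.9 (others 12.5 to 19.3), and GFP-negative SIX2 replicate 3 for Bmp8b, at 3.01 (others 13.6 to 19.7). Among control libraries, GFP-negative replicate 1 was low for Myf5, at 1420 (others 1680 to 1840), and GFP-positive replicate 3 for Fzd4, at 21.1 (others 69.4 to 121).

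The plasmid-label change of Ifit1, an antiviral gene, differed by -2.08 between GFP-positive and GFP-negative cells on the log2 scale, because SIX2 libraries lay on opposite sides of control libraries in the 2 populations. The limma interaction test gave an adjusted p of 0.0751, which misses the threshold.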

How the results depend on the processing

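The plasmid count of 4926 stayed within 1.5 times under every alternative run but 1: it was 4910 and 4961 with pseudocounts of 0.5 and 5, 4516 without a filter, 4625 with a mean of at least 50, 4906 with TMM, 4825 with quantile normalization, 5363 for the average of group means, 5929 with library weights, 4617 after thinning reads and 5168 with the GC trend removed, which was chosen after seeing the data. The exception was GFP-positive libraries alone, with 2449 (1274 higher and 1175 lower); GFP-negative libraries alone gave 4643. The count more than 2-fold changed was 796, and 454 with a mean of at least 50. The GFP label count of 109 was 222 for the average of group means, 199 with library weights, 404 in DESeq2 and 69 after thinning, and the interaction count of 0 was 562 in DESeq2. Without each library in turn, plasmid calls ran between 4248 and 4988 (2159 to 2473 higher, 2083 to 2515 lower, 735 to 862 more than 2-fold), GFP calls between 47 and 350 and interaction calls between 0 and 171. The lowest GFP count lacked GFP-negative control replicate 2 and the highest lacked GFP-positive SIX2 replicate 1. In GFP-positive libraries alone the sign turned for Odc1 (0.031), Ifit1 (-0.79), Six4 (0.064) and Ankib1 (0.48). Among described genes 18 of the values with 1 library left out and 60 under other alternatives lost their call, and 2837 and 3723 kept it or stayed uncalled. The cause of these shifts was not tested.

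Deviations of same-numbered SIX2 and control libraries correlated at -0.11, 0.01 and -0.20 in GFP-positive and near 0 in GFP-negative cells. These values give no sign that replicate numbers pair the plasmid labels within a population, although no differently numbered pairs serve as reference. Same-numbered GFP-positive and GFP-negative libraries were not compared, so pairing across the sorted populations was not tested. With the number as a replicate block, 4584 genes were called for plasmid label and 59 for GFP label.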
